A study of Mus musculus with 6 samples.

Results

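Noncoding host transcripts of small nucleolar RNAs (snoRNAs) were followed in mouse LSK cells after haloperidol. The 9 listed transcripts were Snhg1, Snhg3, Snhg4, Snhg5, Snhg6, Snhg8, Snhg9, Snhg12 and Gas5. They were chosen by name with the haloperidol and DMSO values of these same libraries known, so their differences between the groups are given as a description and carry no test. A row of the deposited table was matched for 8 of the 9, out of 38926 rows in all, and Snhg8 was not analysed here as a transcript because no row was matched to it by its symbol or its older symbols. All 8 matched transcripts had a mean of at least 1 FPKM (fragments per kilobase of transcript, scaled to library size by the authors), as did 11436 genes in total.

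LSK cells lack lineage markers and carry Sca-1 and Kit on their surface, and they include blood stem cells and early progenitors of the marrow. They were sorted from crushed and collagenase-digested femur and tibia of wild-type C57BL/6 mice aged 8 to 12 weeks. One group of 3 libraries came from mice injected with the solvent DMSO on 3 consecutive days, and the other group of 3 from mice injected with haloperidol, an antipsychotic that blocks dopamine receptors, over the same number of days. Cells of each group were kept in the same agent during the sort. No source used here says whether the replicates were separate mice or whether the groups were sorted on different days, so each p-value reflects only library-to-library spread, possibly technical. Effects of a sort day matched to treatment and of the drug cannot be told apart.

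A snoRNA host is transcribed as a longer RNA whose introns hold snoRNAs. The snoRNAs are trimmed from the spliced-out introns and guide chemical modification and processing of ribosomal RNA, and mature snoRNAs carry no poly(A) tail. The joined exons leave the nucleus and in many hosts are degraded by nonsense-mediated decay when ribosomes meet an early stop codon. Many hosts begin with a 5′ terminal oligopyrimidine (TOP) tract, a C followed by C and T bases, which they share with the mRNAs of ribosomal proteins and elongation factors and which ties translation to the kinase mTOR through the binding protein LARP1. Gas5 was named for its accumulation in growth-arrested cells, and its RNA binds the glucocorticoid receptor in human cells.

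The start of each host is shown because the TOP tract is read from the first bases of the transcript. The RefSeq table of promoters (GRCm38.p6) held an entry for 7 of the 9 hosts, with 2 annotated starts for Gas5, and none for Snhg4 and Snhg6. Each line gives 20 bases before the annotated start and 30 bases from it, read 5′ to 3′ on the strand of the gene. Capitals mark the longest run made of a C and at least 4 following C or T bases whose first C lies within 5 bases of the annotated start.
Gas5, downstream start (chr1:161035146-161035195, plus strand): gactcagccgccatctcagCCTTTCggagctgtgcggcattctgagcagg
Gas5, upstream start (chr1:161034581-161034630, plus strand): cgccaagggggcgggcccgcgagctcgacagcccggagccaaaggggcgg
Snhg8 (chr3:123508307-123508356, minus strand): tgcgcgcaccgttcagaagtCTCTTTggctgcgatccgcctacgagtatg
Snhg12 (chr4:132308658-132308707, plus strand): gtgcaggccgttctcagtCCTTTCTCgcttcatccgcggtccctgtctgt
Snhg3 (chr4:132353657-132353706, minus strand): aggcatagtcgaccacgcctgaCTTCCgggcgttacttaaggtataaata
Snhg9 (chr17:24719936-24719985, minus strand): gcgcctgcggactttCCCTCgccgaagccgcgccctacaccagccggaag
Snhg1 (chr19:8723467-8723516, plus strand): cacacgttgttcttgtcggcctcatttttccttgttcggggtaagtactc
Snhg5 (chr9:88522868-88522917, minus strand): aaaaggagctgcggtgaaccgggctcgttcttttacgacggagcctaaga

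A run of this kind lay at 5 of these 7 hosts, which is 71.4% of them. By promoter it was 5 of 8. The same search over all 27025 genes with an entry found the run in 21.2%, and in 28 of 58 ribosomal protein genes (48.3%). Only the gene's own strand was searched, and the longest run at each start was kept. Of the marked runs that of Snhg12 was the longest, at 8 bases. Snhg8 and the downstream start of Gas5 had runs of 6, and Snhg3 and Snhg9 had runs of 5. The run of Snhg9 began 5 bases before its annotated start and ended before it, so none of its marked bases is in the annotated transcript. That run is the end of a longer stretch of C and T bases reaching upstream of the window, so the window sets its length. At Snhg1, Snhg5 and the upstream start of Gas5 these letters were not in the window. When the run had to hold at least 6 C or T bases after the C, it lay at 1 of 7 hosts (14.3%), 39.7% of ribosomal protein genes and 7.64% of all genes. With the C exactly at the annotated start, it lay at 2 of 7 hosts (28.6%), 24.1% of ribosomal protein genes and 3.01% of all genes. The share among hosts therefore moved with the setting, above that of ribosomal protein genes in 2 settings and below it in 1. A match is a description of letters, not evidence of a used start.

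**Figure D1:**
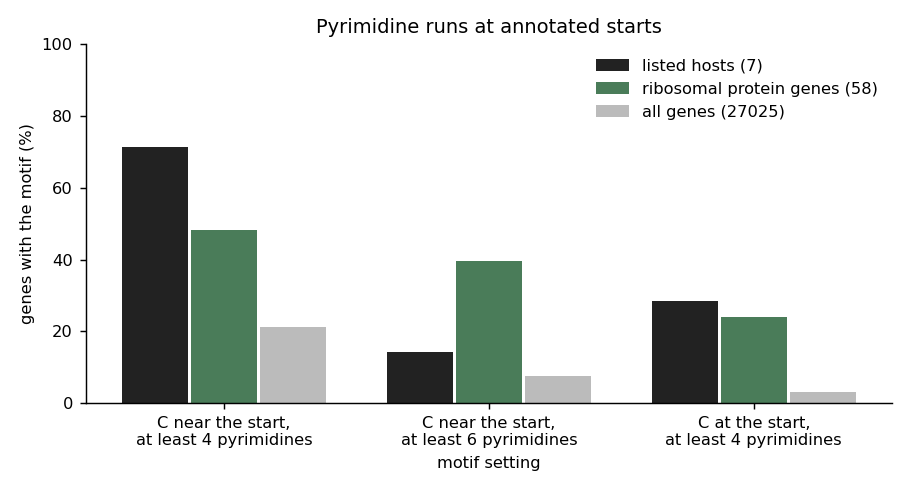
Share of genes (percent, y axis) with the pyrimidine run at or near an annotated start, under 3 settings of the search (x axis). Bars are the listed hosts, ribosomal protein genes and all genes with a promoter entry. With at least 4 pyrimidines near the start the shares were 71.4%, 48.3% and 21.2%, and with at least 6 the hosts were at 14.3%.

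Depth, worked back from the spacing of low FPKM values, was 8523556 to 8969024 reads per library. The LSK label was checked against marker genes. Kit and Ly6a, which encode the sorted proteins Kit and Sca-1, were at 87.8 ± 7.38 and 136 ± 10.2 FPKM in DMSO (SD, n = 3). Of 22 markers of other cells, 10 had means under 1 FPKM in both groups, among them the B cell gene Ms4a1 and the T cell genes Cd3e, at 0 in 4 libraries, and Cd8a, at 0 in all 6. Of the 12 others 3 fell with haloperidol and 0 rose, and the summed level of the 22 was 1383 to 1737 FPKM in DMSO and 1732 to 2264 FPKM in haloperidol, nearly all of it the globin gene Hbb-bs. Without Hbb-bs the sums were 105 to 117 and 96.1 to 102 FPKM. Of 12 LSK markers 6 fell and 1 rose. The part of these shifts in the host values was not tested, and in bulk samples fewer cells of a type and less RNA per cell cannot be told apart.

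In DMSO the 8 measured hosts spanned a wide range of level per length. Gas5 stood far above the others at 73.2 FPKM, higher than 90.5% of the genes tested. Snhg5 at 12.7 FPKM, Snhg4 at 10.7 FPKM and Snhg6 at 9.84 FPKM came next, near the middle of all genes. The library range of Snhg4 overlapped with those of Snhg5 and Snhg6. Snhg1 followed at 5.68 FPKM, with a range apart from those of its neighbours. Snhg9, Snhg12 and Snhg3, at 3.08, 2.76 and 2.48 FPKM, had overlapping ranges at the foot of the order. Under haloperidol the order changed. Snhg4 and Snhg5 overlapped at 18.9 and 17.5 FPKM, Snhg9 at 9.29 FPKM lay above Snhg1 at 6.12 FPKM with ranges apart, and Snhg12 was lowest at 2.66 FPKM. In reads, Gas5 made up 80.5% ± 0.481 of the 8 hosts' reads in DMSO and 76.6% ± 1.21 in haloperidol (SD, n = 3 each).

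**Figure D2:**
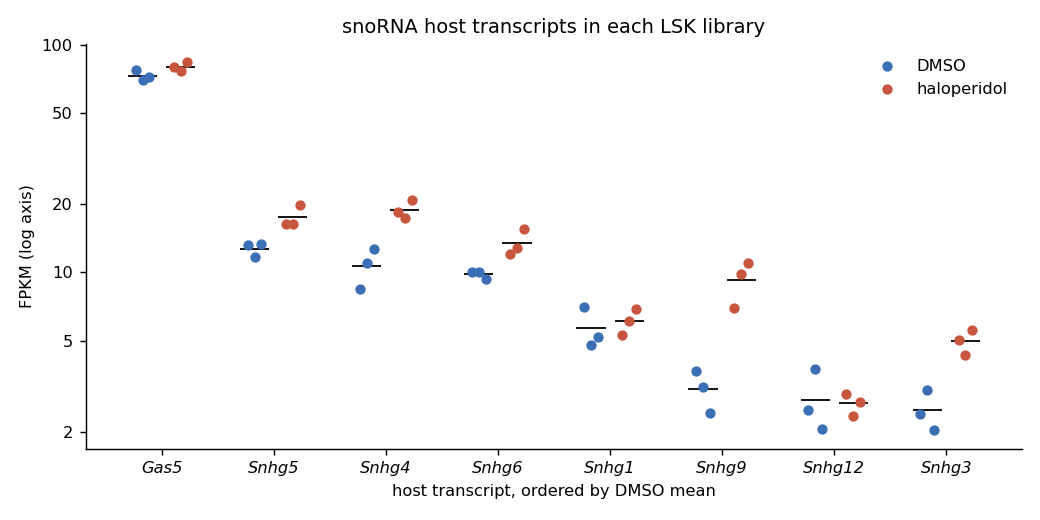
FPKM (log axis) of the 8 measured hosts in each of 3 DMSO and 3 haloperidol libraries, with a line at each group mean, ordered by DMSO mean. Points of the groups are apart for Snhg5, Snhg4, Snhg6, Snhg9 and Snhg3 and overlap for Gas5, Snhg1 and Snhg12.

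With haloperidol the hosts did not move as one. Snhg9, Snhg3, Snhg4, Snhg5 and Snhg6 were higher in every haloperidol library than in every DMSO library, by 1.37 to 3.01 times in mean FPKM. Gas5, Snhg1 and Snhg12 had overlapping groups and means within 1.09 times of each other. Complete separation with higher haloperidol values was thus seen for 5 of 8 hosts, beside 21% of all genes tested, and complete separation with lower values for 0 of 8, beside 22.1% of all genes. The members were picked with these values known, so nothing follows from that count. The median difference of the 8 in log2(FPKM + 1) was 0.42, and over all genes tested it was 0.0022.

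Snhg9 differed most in proportion and rested on the fewest reads. It is a short host on chromosome 17, 24719531 to 24719965 (GRCm38), that holds the snoRNA gene Snora78. It was at 3.68, 3.15 and 2.42 FPKM in DMSO and at 6.99, 9.83 and 11.0 FPKM in haloperidol. These values stood for 6, 5 and 4 reads and for 11, 16 and 18 reads. The groups were apart, with means of 3.08 ± 0.629 and 9.29 ± 2.08 FPKM (SD, n = 3 each) and a difference of 1.32 in log2(FPKM + 1) (SE 0.17). That SE comes from the limma fit, which draws also on the spread of other genes of similar FPKM. The counting error of so few reads was not worked out separately and may be larger. Snhg9 lies inside the span of Rps2, which encodes a protein of the small ribosomal subunit, on the opposite strand. The library kits keep no strand, so reads of Snhg9 and of unspliced Rps2 RNA cannot be told apart, although only 14 of the 183 exon bases of Snhg9 are shared with exons of Rps2. Rps2 itself rose from 65.1 ± 5.92 to 86.4 ± 5.24 FPKM, a log2 difference of 0.41 (SE 0.08, limma adjusted p = 0.00635), with 11.5% of all genes called higher and 13% called lower in that test.

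Snhg3 was 2.01 times as high in haloperidol. It carries Snora73a and Snora73b on chromosome 4, 132351933 to 132353686, and both of those snoRNA rows were at 0 reads. Snhg3 was at 2.39, 3.04 and 2.02 FPKM in DMSO and at 5.07, 4.33 and 5.58 FPKM in haloperidol. The reads were few, 18 to 26 per DMSO library and 38 to 49 per haloperidol library, and the ranges did not meet. The means were 2.48 ± 0.512 and 4.99 ± 0.625 FPKM (SD, n = 3 each), a difference of 0.79 in log2(FPKM + 1) (SE 0.13). At such levels the added 1 shrinks the difference, which was 0.99 with a pseudocount of 0.1. Snhg3 shares 135 exon bases with Rcc1, the exchange factor of the GTPase Ran, which starts 81 bases away on the same strand. It also shares 705 of its 986 exon bases with the antisense gene Gm17300. The library kits keep no strand, so over most of its exon bases reads of Snhg3 and of Gm17300 cannot be told apart by strand. Rcc1 was at 28.3 ± 1.81 and 28.7 ± 1.41 FPKM (adjusted p = 0.856, limma), and Gm17300 was between 1.06 and 1.395 FPKM in DMSO and between 1.33 and 1.985 FPKM in haloperidol (adjusted p = 0.302, limma).

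Snhg12 lies 40908 bases from Snhg3 on the same chromosome, at 132308678 to 132311024, and its groups overlapped. It was at 2.48, 3.75 and 2.05 FPKM in DMSO and at 2.93, 2.35 and 2.69 FPKM in haloperidol. The means of 2.76 ± 0.887 and 2.66 ± 0.291 FPKM differed by -0.02 in log2(FPKM + 1) (SE 0.17), and every haloperidol value lay within the DMSO range. The difference was above 0 without DMSO replicate 2 (0.16) and without haloperidol replicate 2 (0.04), and was -0.16 without DMSO replicate 3. Snhg12 carries 4 annotated snoRNA genes, more than Snhg3.

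Snhg4 is on chromosome 18, 35553410 to 35558316, and carries Snora74a. Its values were 8.48, 11.0 and 12.7 FPKM in DMSO and 18.5, 17.4 and 20.8 FPKM in haloperidol, from 87 to 132 and 178 to 213 reads. The lowest haloperidol library lay above the highest DMSO library, and the DMSO libraries were spread more widely. The means were 10.7 ± 2.13 and 18.9 ± 1.73 FPKM (SD, n = 3 each), a ratio of 1.76 and a difference of 0.77 in log2(FPKM + 1) (SE 0.13). The annotated gene Gm28285 overlaps it on the same strand and shares 246 exon bases, and no row was matched to that gene.

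Snhg5 and Snhg6 differed by similar, smaller amounts. Snhg5 is a host of the Snord50 snoRNAs on chromosome 9, 88521052 to 88522897. It was at 13.2, 11.7 and 13.3 FPKM in DMSO and at 16.4, 16.4 and 19.9 FPKM in haloperidol, with means of 12.7 ± 0.881 and 17.5 ± 2.005 FPKM (SD, n = 3 each). Snhg6 is the host of Snord87 on chromosome 1, 9942025 to 9944118. It was at 10.08, 10.05 and 9.38 FPKM in DMSO and at 12.1, 12.8 and 15.6 FPKM in haloperidol, with means of 9.84 ± 0.392 and 13.5 ± 1.86 FPKM. The groups of both were apart, and haloperidol replicate 3 stood above the other two. The differences in log2(FPKM + 1) were 0.43 (SE 0.09) for Snhg5 and 0.41 (SE 0.09) for Snhg6, and without haloperidol replicate 3 they were 0.34 and 0.31. Snhg6 shares 127 exon bases with Mcmdc2, a gene on the opposite strand. The library kits keep no strand, so reads over those bases cannot be told apart by strand. The mean FPKM of Mcmdc2 was 0.082 ± 0.061 for DMSO and 0.128 ± 0.039 for haloperidol, too low to be tested.

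Gas5, the most abundant host, is on chromosome 1, 161034601 to 161038539, with 10 annotation entries of type snoRNA in its span. It was at 77.8, 69.8 and 72.0 FPKM in DMSO and at 79.7, 76.8 and 83.8 FPKM in haloperidol, from 2280 to 2609 and 2566 to 2806 reads. DMSO replicate 1 lay above haloperidol replicate 2, so the groups overlapped. The means were 73.2 ± 4.13 and 80.1 ± 3.53 FPKM (SD, n = 3 each), a ratio of 1.09 and a difference of 0.13 in log2(FPKM + 1) (SE 0.06). The difference was 0.095 without DMSO replicate 2 and 0.17 without DMSO replicate 1. Zbtb37 overlaps the span of Gas5 on the opposite strand, starts 248 bases away and shares none of its exon bases. The mean FPKM of Zbtb37 was 0.90 ± 0.055 for DMSO and 0.89 ± 0.20 for haloperidol, too low to be tested.

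Snhg1, with 8 annotated snoRNA genes on chromosome 19, 8723487 to 8726326, also had overlapping groups. It was at 7.04, 4.81 and 5.19 FPKM in DMSO and at 5.32, 6.14 and 6.89 FPKM in haloperidol. The highest of all 6 values was that of DMSO replicate 1. The means were 5.68 ± 1.19 and 6.12 ± 0.786 FPKM (SD, n = 3 each), and the difference of 0.10 in log2(FPKM + 1) (SE 0.14) went from 0.0075 without DMSO replicate 2 to 0.24 without DMSO replicate 1. Slc3a2, which encodes the heavy chain of amino acid transporters and starts 118 bases from Snhg1 on the opposite strand, rose from 120 ± 4.89 to 147 ± 4.93 FPKM, a log2 difference of 0.28 (SE 0.05, limma adjusted p = 0.00534).

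Haloperidol replicate 3 was the highest of its group for 7 of the 8 hosts, where it was the highest for 35.2% of all genes tested. It was also the highest for 53 of 79 ribosomal protein genes. Among DMSO libraries replicate 1 was the highest for 4 of 8 hosts, for 32.6% of all genes tested and for 62 of 79 ribosomal protein genes. Together the 8 hosts had 365, 330.2 and 339 RPM (reads scaled to library size) in DMSO and 389, 382 and 420.02 RPM in haloperidol, and the groups did not overlap. Leaving out Gas5, the sums were 69.3, 65.8 and 66.5 RPM in DMSO and 86.8, 88.3 and 104 RPM in haloperidol.

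The counted length was set beside the annotated exons of each host. The length behind the FPKM values, recovered from the steps, was 3760 bases for Gas5, which equals the union of all its annotated exons in GENCODE M21, while its annotated spliced forms are 346 to 2556 bases long. The same equality held for Snhg3 (986 bases) and Snhg6 (1146 bases), whose longest spliced forms are 581 and 816 bases. Snhg9 has 1 spliced length of 183 bases, which was also its counted length. For Snhg1 the counted length of 2947 bases was longer than its RefSeq span of 2840 bases. For Snhg4 the counted length of 1151 bases was below its longest spliced form of 1676 bases. Where the counted length was above the longest spliced form, as for Gas5, Snhg1, Snhg3, Snhg5, Snhg6 and Snhg12, the FPKM values do not separate the annotated forms.

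The rows of the snoRNAs themselves held few reads. GENCODE M21 has 31 entries of type snoRNA inside the 9 hosts, of which 2 carry microRNA names (Mir5117 in Gas5 and Mir1949 in Snhg4) and Snord80 in Gas5 is entered 2 times. Of the 31, 24 were matched to a row, and 20 of these had 0 reads in all 6 libraries. For reads assigned to a row, 0 reads allows up to 0.334 to 0.352 RPM (3 reads of the library total, counting error only). The counted lengths of Gas5 and Snhg1 were 95.5% and 104% of their spans, so counted host bases can overlap snoRNA rows. How reads over both were assigned is not known, and mature snoRNAs carry no poly(A) tail by which cDNA could start. For both reasons the zeros set no bound on the snoRNAs. Snora24, which lies inside Snhg8, had 14, 4 and 9 reads in DMSO and 8, 11 and 10 reads in haloperidol. Snora78, inside Snhg9, had 2, 2 and 6 reads and 3, 3 and 7 reads. The groups overlapped for both. The other rows with reads, Snord87 and Snora74a, had at most 2 in any library.

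Other noncoding snoRNA hosts, which were not among the 9, did not pass the test. An annotated snoRNA gene was found in the span of 8 of the 12 listed, searched by symbol in GENCODE M21. By level, 8 of the 12 had a mean of at least 1 FPKM. Of these 8, 0 were called by limma over all genes tested, beside 11.5% of all genes called higher and 13% lower. At an unadjusted p under 0.05 in limma there were 3. The share of all genes at that looser level was not counted, and it cannot be below the shares of the adjusted test. Nothing follows from that count of 3. Limma-voom on recovered reads called 0 of the 8. Their median difference in log2(FPKM + 1) was 0.26, and 7 of the 8 were above 0, as were 5769 of all 11436 genes. Zfas1 (listed as 1500012F01Rik), the host of the Snord12 family, was at 18.7, 16.9 and 15.9 FPKM in DMSO and between 19.9 and 20.1 FPKM in the 3 haloperidol libraries. Its groups were apart (difference 0.21, SE 0.07, limma adjusted p = 0.0525), and over the 12 alternatives its adjusted p was 0.026, without DMSO replicate 1, to 0.146. Snhg16 (listed as 1810032O08Rik) was at 2.30 ± 0.379 and 3.19 ± 0.418 FPKM (adjusted p = 0.081, limma). Dancr, named for a role in blocking differentiation, was at 1.70 ± 0.205 and 2.36 ± 0.406 FPKM (adjusted p = 0.113, limma). Snhg15 (listed as Gm11974), the most abundant of them, was at 29.8 ± 3.69 and 28.7 ± 3.83 FPKM (adjusted p = 0.764, limma).

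**Figure D3:**
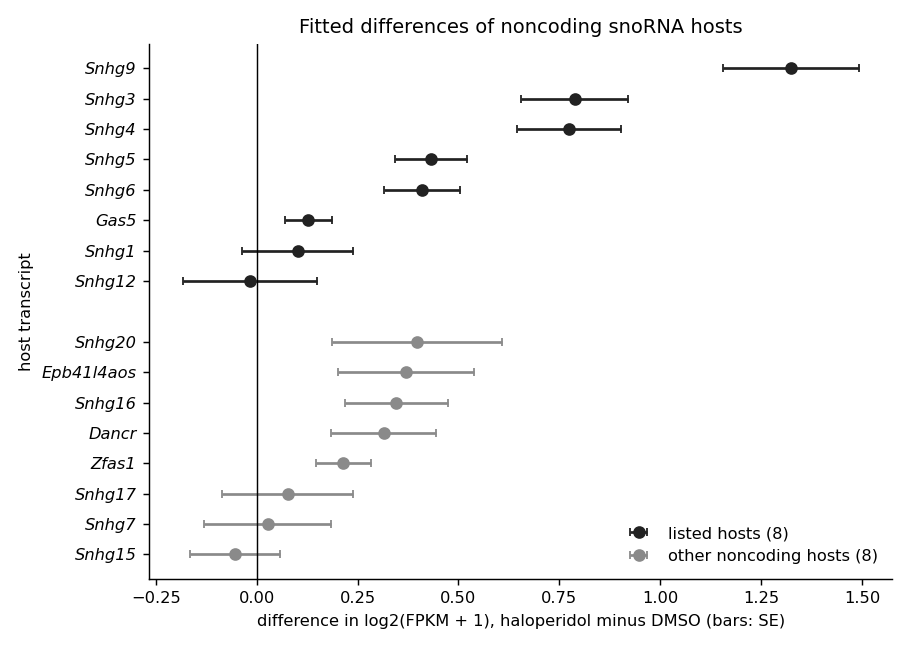
Fitted difference in log2(FPKM + 1), haloperidol minus DMSO, with its standard error, for the 8 measured hosts of the list (black) and 8 other noncoding hosts (grey). The listed hosts run from 1.32 for Snhg9 to -0.02 for Snhg12, and the others from 0.40 for Snhg20 to -0.05 for Snhg15.

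Of 25 protein-coding hosts, all with an annotated snoRNA gene in their span, 5 rose and 2 fell, beside 11.5% and 13% of all genes, with a median log2 difference of 0.06. Hspa8, a constitutive heat shock protein, fell from 569 ± 15.6 to 450.5 ± 5.74 FPKM (adjusted p = 0.00128, limma), and Ppan, a factor of large subunit assembly, fell from 73.4 ± 7.40 to 57.5 ± 2.48 FPKM (adjusted p = 0.0136, limma). Ncl, the nucleolar protein nucleolin, rose from 139.6 ± 2.72 to 157 ± 5.79 FPKM (adjusted p = 0.0304, limma), a call lost in 7 of 12 alternatives with an adjusted p of up to 0.0964. The 5 rises became 0 to 2 when any 1 library was left out and 0 with no filter on low values.

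Ribosomal protein genes are the largest class of TOP mRNAs. Of 79 tested, 43 rose, 0 fell and 36 did not pass, beside 11.5% of all genes called higher and 13% lower, and the median log2 difference was 0.23. Rpl38 rose from 370.1 ± 30.1 to 521 ± 40.5 FPKM (adjusted p = 0.00255, limma), Rpl27 from 172 ± 10.2 to 226 ± 10.9 FPKM (adjusted p = 0.00245, limma), Rpl10 from 53.2 ± 1.65 to 69.5 ± 4.43 FPKM (adjusted p = 0.00297, limma), and Rpl32, the most abundant, was at 2085 ± 125 and 2255 ± 126 FPKM (adjusted p = 0.234, limma). The 30 ribosomal protein genes that themselves hold an annotated snoRNA had 13 rises and a median of 0.18, and the 49 that hold none had 30 rises and a median of 0.24. The count of 43 became 21 without DMSO replicate 2, 22 without DMSO replicate 3, 19 without haloperidol replicate 1, 21 without haloperidol replicate 3 and 15 with no filter on low values.

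Of 20 other TOP mRNAs, 9 rose and 0 fell, beside the same 11.5% and 13% of all genes, with a median log2 difference of 0.18. Nap1l1, a histone chaperone, rose from 54.9 ± 2.03 to 69.4 ± 2.13 FPKM (adjusted p = 0.00265, limma), and Npm1, the nucleolar protein nucleophosmin, from 247 ± 4.30 to 284 ± 6.31 FPKM (adjusted p = 0.0127, limma). Btf3, a factor of the nascent polypeptide complex, rose from 211 ± 6.86 to 245 ± 12.6 FPKM (adjusted p = 0.0195, limma), a call lost in 4 of 12 alternatives with an adjusted p of up to 0.066. The elongation factor gene Eef1a1 was at 1343 ± 44.3 and 1356 ± 22.7 FPKM (adjusted p = 0.845, limma). The 9 rises became 3 without DMSO replicate 2, DMSO replicate 3 or haloperidol replicate 1 and with no filter on low values, and 5 without haloperidol replicate 3.

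**Figure D4:**
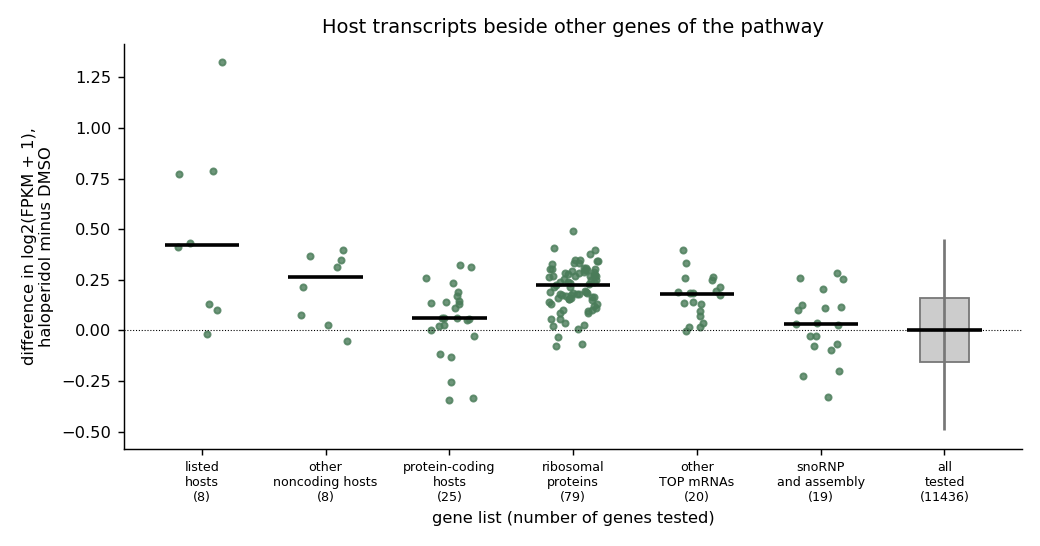
Differences in log2(FPKM + 1), haloperidol minus DMSO, for each gene tested (points) of 6 lists, with list medians as lines, beside all 11436 genes (box: quartiles, line: 5th to 95th percentile). Medians are 0.42 for the listed hosts, 0.26 for other noncoding hosts, 0.06 for protein-coding hosts, 0.23 for ribosomal proteins, 0.18 for other TOP mRNAs, 0.03 for snoRNP proteins and 0.0022 for all genes.

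Of 19 proteins that bind or assemble snoRNAs, 4 rose and 3 fell, beside 11.5% and 13% of all genes, with a median log2 difference of 0.03. Fbl, the methyltransferase fibrillarin of C/D snoRNPs, rose from 153 ± 3.05 to 177 ± 1.06 FPKM (adjusted p = 0.0098, limma), and Gar1, a core protein of H/ACA snoRNPs, from 38.3 ± 1.37 to 46.8 ± 0.999 FPKM (adjusted p = 0.00542, limma). Ruvbl2, an ATPase of the assembly machinery, rose from 71.7 ± 0.292 to 86.2 ± 6.25 FPKM (adjusted p = 0.0142, limma). Nop10, an H/ACA core protein and the most abundant gene of the list, was at 238 ± 4.57 and 258 ± 9.71 FPKM (adjusted p = 0.109, limma). The 3 falls became 1 without DMSO replicate 1, DMSO replicate 3, haloperidol replicate 1 or haloperidol replicate 2, with upper quartile scaling and with no filter.

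Of 18 genes of nonsense-mediated decay, which degrades many spliced hosts, 4 rose and 0 fell, beside 11.5% and 13% of all genes. Smg9, a regulator of the kinase SMG1, rose from 7.28 ± 0.620 to 10.4 ± 0.841 FPKM (adjusted p = 0.00622, limma). Upf3b and Smg5 rose with log2 differences of 0.34 (SE 0.10) and 0.34 (SE 0.10), at limma adjusted p = 0.0365 and 0.0466, calls lost in 6 and in 8 of 12 alternatives with adjusted p of up to 0.11 and 0.136. Eif4a3, a core of the exon junction complex and the most abundant gene of the list, was at 159 ± 3.73 and 162 ± 4.90 FPKM (adjusted p = 0.705, limma). The count was 1 or 2 with any 1 library left out, 1 with no filter and 2 after rescaling to a common sum, and Smg9 passed under every alternative run.

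Among 20 regulators of TOP mRNA translation, 4 rose, 1 fell and 15 did not pass, beside 11.5% and 13% of all genes. Deptor, an inhibitory subunit of mTOR complexes, rose from 5.49 ± 0.132 to 9.57 ± 0.705 FPKM, a log2 difference of 0.70 (SE 0.08, limma adjusted p = 6.04e-04). Ddit4, a stress-induced inhibitor of mTOR complex 1, rose from 13.1 ± 1.43 to 21.1 ± 2.29 FPKM, a log2 difference of 0.65 (SE 0.10, limma adjusted p = 0.00258). Rheb, the GTPase that activates that complex, fell from 58.0 ± 3.16 to 42.1 ± 1.41 FPKM, a log2 difference of -0.45 (SE 0.06, limma adjusted p = 0.00113). Cnbp, an RNA-binding protein of TOP mRNAs and the most abundant gene of the list, was at 852 ± 23.3 and 847 ± 26.9 FPKM (adjusted p = 0.92, limma). The calls of Deptor, Ddit4 and Rheb held under all 12 alternatives run, while the count of 4 rises was 2 without DMSO replicate 2, haloperidol replicate 1 or haloperidol replicate 3. Translation and mTOR activity were not measured here.

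Genes were ranked by how alike their values over the 6 libraries were to the mean of the 8 standardised hosts. Predicted genes, clone names, small RNA genes and pseudogenes were left out, so rows such as 1500012F01Rik (Zfas1) could not appear. Most alike among the rest were Klhdc3, Id2, Dgke, Btf3 and Tnfrsf11b, with Pearson correlations of 0.993 to 0.996. The 6 points fall into the treatment groups, so such values mainly follow the difference between groups, and they are given as a description. Id2, a transcriptional inhibitor, was at 10.7, 10.8 and 9.69 FPKM in DMSO and at 14.2, 13.8 and 17.4 FPKM in haloperidol. Within the list, Snhg6 was most like the mean of the other hosts (r = 0.978) and Snhg12 least (r = -0.097), over the same 6 libraries.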

How the data were processed

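RNA was sequenced from 6 libraries of sorted LSK cells. The authors deposited FPKM values for 38926 genes. Per the submitters' processing notes the build was mm10, and the tools listed, without their roles, include HTSeq 0.6.1, TopHat2 2.1.1 and DESeq2 1.18.1. Counting options and annotation release: not given in the sources used here. Per the labels' protocols, cDNA came from a SMART-Seq v4 kit and libraries from a Nextera XT kit, which keep no strand.

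Genes with a mean of at least 1 FPKM were compared between groups by limma 3.58.1 (R 4.3.3) after log2(FPKM + 1) transformation (trended prior, two-sided, no covariate), with Benjamini-Hochberg adjustment over all 11436 genes and a threshold of 0.05. The test was tried on simulated data. Whole reads came out for 100% of genes above 0 within 0.001 reads and gave depth. Alternatives were another pseudocount, no filter, other scalings, a replicate block, leaving out each library and, chosen after seeing the data, limma-voom on the recovered reads.

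The members and gene lists were chosen with earlier results of these data known. Genes named are all members, up to 3 per list with the smallest p and the 1 with the largest DMSO mean, genes overlapping a member or starting within 1000 bases of one, and the 5 most like the members. Markers of LSK and other cells are named as a check of the label. Older symbols were matched through RefSeq, and positions are GRCm38, the same assembly as mm10.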

Additional observations from a re-analysis of the deposited data

How the results depend on the processing

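Under the 12 alternatives, the differences of Snhg3, Snhg4, Snhg5, Snhg6, Snhg9, Gas5 and Snhg1 stayed above 0 and that of Snhg12 was above 0 in 2. The median of the 8 hosts was 0.33 to 0.48 with 1 library left out. That of Snhg3 reached 1.01 with limma-voom on recovered reads. With no filter, 848 genes were higher in place of 1320, and the counts of rises were 15 in place of 43 for ribosomal proteins, 3 in place of 9 for other TOP mRNAs, 0 in place of 5 for protein-coding hosts and 1 in place of 4 for nonsense-mediated decay, with 1 fall in place of 3 among snoRNP proteins. Rescaling to a common sum gave 2 rises for protein-coding hosts and 2 for nonsense-mediated decay, and upper quartile scaling gave 1 fall among snoRNP proteins. Leaving out 1 library gave 817 to 985 genes higher and 1814 to 2160 called in place of 2807, and counts of 0 to 1 for other noncoding hosts, 0 to 2 for protein-coding hosts, 19 to 42 for ribosomal proteins, 3 to 7 for other TOP mRNAs, 1 to 3 falls for snoRNP proteins, 1 to 2 for nonsense-mediated decay and 2 to 3 for TOP regulators. The cause of these moves was not tested.

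Same-numbered libraries of the groups had correlations of deviations of 0.0095 to 0.055, so no shared deviation by number was seen. Whether same-numbered libraries were prepared together is not known. With the replicate block 2552 genes were called, with 1 rise among other noncoding hosts (Snhg20) in place of 0 and 2 among protein-coding hosts in place of 5. The planned quasi-likelihood count test was not run, because the deposited unit is FPKM. Depth limits Snhg9 and Snhg3 most, at 4 to 18 and 18 to 49 reads per library.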
